A study of Homo sapiens with 4 samples.

Results

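Among 1733 mature miRNAs counted in 4 small RNA libraries, 3 guide strands were examined: hsa-miR-26a and hsa-miR-26b, which form the miR-26 family, and hsa-miR-101. They were taken by name from the count tables, with no filter on their values, because all 3 have been described as tumor suppressors in the liver. Earlier results of these data were known when they were chosen. The libraries came from 2 established human hepatoma lines, Hep3B and Huh7 (the HCC cells), and from the stem-like cancer cells cultured out of each, Hep3B-C and Huh7-C (the hepatic cancer stem cells, or HCSCs). No genetic change or drug is named for any of the 4 conditions, and the culture conditions that set the HCSCs apart are not given in the sources used here. Each condition had 1 library, so no difference between libraries has a replicate check, and each HCSC line stands for 1 derivation from its parent.

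A miRNA acts by pairing its seed, bases 2 to 8 from the 5′ end, with complementary sites in mRNAs, which lowers the output of those mRNAs. The miR-26 guides come from introns of genes for small CTD phosphatases, and they are known to restrain the cell cycle through targets such as cyclins. MiR-101 and miR-26a are both known to repress EZH2, the histone methyltransferase of the Polycomb complex, and loss of either has been described in hepatocellular carcinoma.

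The mature sequences are shown because the shared seed is what makes miR-26a and miR-26b a family and sets miR-101 apart. They are printed 5′ to 3′ from RefSeq (GRCh38.p14), with the seed in capitals. All 7 names sought, the 3 guides and 4 passenger strands, matched an entry.
hsa-miR-26a: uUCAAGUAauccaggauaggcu
hsa-miR-26b: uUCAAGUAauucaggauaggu
hsa-miR-101: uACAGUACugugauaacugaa
hsa-miR-1297: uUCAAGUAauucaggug
hsa-miR-4465: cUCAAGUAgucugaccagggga
hsa-miR-144-3p: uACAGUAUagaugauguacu

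Over the 21 bases that both have, hsa-miR-26a and hsa-miR-26b differed at 2 positions, C11U and C21U, where the base of miR-26a comes first and positions count from 1 at the 5′ end. Both lie outside the seed. The seed UCAAGUA was found in 4 of 2370 mature miRNAs of RefSeq, the other two being hsa-miR-1297 and hsa-miR-4465. Neither added many reads. Hsa-miR-1297 had 0 counts in every library, and hsa-miR-4465 had 0 in both libraries from Hep3B, 8 in Huh7 and 11 in Huh7-C. Thus miR-26a and miR-26b held 100% of the counts with this seed in both libraries from Hep3B, 99.93% in Huh7 and 99.88% in Huh7-C. The seed of miR-101 was found in no other mature miRNA of the 2370. Hsa-miR-144-3p shares the first 6 bases of that seed, and hsa-miR-144 was at 0 counts in all 4 libraries.

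The same guides can come from more than 1 hairpin. The 5 hairpins are shown because they decide which passenger strand belongs to which guide. They are given 5′ to 3′ with both annotated arms in capitals, at their GRCh38 positions in GENCODE release 29. MIR26A1 lies at chr3:37969404-37969480 on the plus strand, in an intron of CTDSPL. MIR26A2 lies at chr12:57824609-57824692 on the minus strand, in an intron of CTDSP2. MIR26B lies at chr2:218402646-218402722 on the plus strand, in an intron of CTDSP1. MIR101-1 lies at chr1:65058434-65058508 on the minus strand, in no annotated host gene. MIR101-2 lies at chr9:4850297-4850375 on the plus strand, in an intron of RCL1.
MIR26A1: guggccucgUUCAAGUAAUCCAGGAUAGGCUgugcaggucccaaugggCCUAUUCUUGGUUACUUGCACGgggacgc
MIR26A2: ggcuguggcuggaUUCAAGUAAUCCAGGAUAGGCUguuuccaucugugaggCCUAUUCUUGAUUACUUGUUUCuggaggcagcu
MIR26B: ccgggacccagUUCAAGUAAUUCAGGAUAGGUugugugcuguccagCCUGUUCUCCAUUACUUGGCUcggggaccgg
MIR101-1: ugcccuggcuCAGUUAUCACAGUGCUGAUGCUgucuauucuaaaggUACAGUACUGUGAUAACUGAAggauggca
MIR101-2: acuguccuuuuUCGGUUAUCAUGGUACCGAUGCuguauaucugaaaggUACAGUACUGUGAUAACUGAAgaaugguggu

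The guide of MIR26A1 and MIR26A2 is identical, as is that of MIR101-1 and MIR101-2, so counts of hsa-miR-26a and hsa-miR-101 cannot be divided between their hairpins. The passenger strands of the miR-26a hairpins differ and are counted apart.

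The libraries held 1739278 (Hep3B), 5430195 (Hep3B-C), 5741567 (Huh7) and 4045199 (Huh7-C) miRNA counts, which were 10.4%, 35.2%, 54.1% and 37.8% of the total reads of each library. This share matters for every level below. A level per 1000000 total reads (TPM) moves with it, and a level per 1000000 miRNA counts (CPM) does not. Hepatocyte miRNAs (hsa-miR-122, hsa-miR-192 and hsa-miR-194) were all detected in each library, and summed to 10.1% to 21.4% of miRNA counts. The sum does not show that each member was at a similar level in all libraries. Hsa-miR-192 gave 179088 of the 184559 summed counts in Hep3B, and hsa-miR-122 only 397. The level of hsa-miR-122 was 228 CPM there, against 27603 CPM (Hep3B-C), 85246 CPM (Huh7) and 35799 CPM (Huh7-C). The 5 blood cell miRNAs summed to 797 counts in Huh7 and to 6, 1 and 11 counts in Hep3B, Hep3B-C and Huh7-C, and 773 of those in Huh7 were hsa-miR-451. Hsa-miR-144, which shares a precursor transcript with miR-451, was at 0 in all libraries, while the other arm of its hairpin, hsa-miR-144*, had 17 counts in Huh7 and 4, 9 and 4 in Hep3B, Hep3B-C and Huh7-C. Of the neuronal miRNAs, hsa-miR-124 was at 0 and hsa-miR-9 had 154 counts in Hep3B, 844 in Hep3B-C, and 9765 and 11349 in the libraries from Huh7. The muscle miRNAs summed to 15 to 139 counts. The part of these markers in the results was not tested.

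Hsa-miR-101 was the most abundant of the 3 guides in every library. Its counts were 13345 in Hep3B and 29695 in Hep3B-C, then 27733 in Huh7 and 11614 in Huh7-C, which placed it between rank 18 and rank 24 among all miRNAs of a library. Hsa-miR-26a had 5680, 12939, 8510 and 6880 counts in the same order of libraries, at ranks 33 to 38. Hsa-miR-26b had 2935, 6895, 2608 and 2235 counts, at ranks 48, 51, 68 and 57. The order of the guides was thus the same in all 4 libraries, and ranks, which hold no library size, moved most for miR-26b.

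Together the 3 guides made up 1.26% of miRNA counts in Hep3B (95% Clopper-Pearson interval 1.25% to 1.28%) and 0.912% in Hep3B-C, and 0.677% in Huh7 against 0.512% in Huh7-C. On this scale both libraries from Hep3B were above both libraries from Huh7, and each HCSC line was below its parent. In the Huh7 pair only miR-101 fell, from 4830 CPM in Huh7 to 2871 CPM in Huh7-C. There miR-26a went from 1482 to 1701 CPM and miR-26b from 454 to 553 CPM. In bulk RNA, fewer cells that express a miRNA and less of it per cell cannot be told apart. All intervals on counts cover counting error only, since PCR copies cannot be separated from molecules and cultures were not repeated.

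Per 1000000 total reads, hsa-miR-26a stood at 338 TPM in Hep3B and 838 TPM in Hep3B-C, then 801 TPM in Huh7 and 642 TPM in Huh7-C. Hsa-miR-26b stood at 175, 447, 246 and 209 TPM, and hsa-miR-101 at 795, 1923, 2611 and 1084 TPM. Hep3B was the lowest library for all 3 on this scale. The top library was Hep3B-C for both miR-26 guides and Huh7 for miR-101. The closest neighbours in these orders were Hep3B-C and Huh7 for miR-26a, with a ratio of 1.05 (95% interval 1.02 to 1.08).

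Per 1000000 miRNA counts the order was different. Hsa-miR-26a stood at 3266 CPM in Hep3B and 2383 CPM in Hep3B-C, then 1482 CPM in Huh7 and 1701 CPM in Huh7-C. Hsa-miR-26b stood at 1687, 1270, 454 and 553 CPM. For hsa-miR-101 the levels were 7673, 5469, 4830 and 2871 CPM. Hep3B was now the top library for all 3, and both libraries from Huh7 were below both from Hep3B. The closest neighbours here were Hep3B-C and Huh7 for miR-101, with a ratio of 1.13 (1.11 to 1.15). Neighbours differed beyond counting error on both scales, and with 1 library each, the spread between cultures is not known.

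**Figure D1:**
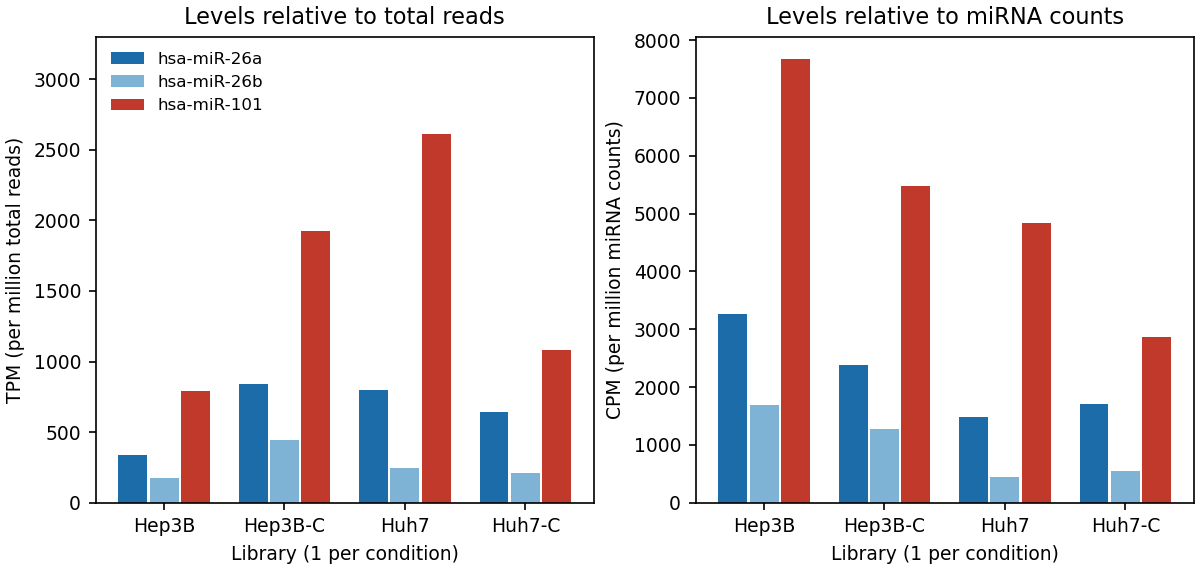
Levels of the 3 guide strands in the 4 libraries (x axis), as TPM, per 1000000 total reads, on the left y axis and as CPM, per 1000000 miRNA counts, on the right. Each bar is 1 library, and Hep3B is the lowest library on the left and the top library on the right for all 3 guides.

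The first comparison asked whether the 3 guides differed between HCSCs and the HCC cells they came from. In the Hep3B pair they moved together. The log2 fold-change of TPM, Hep3B-C over Hep3B, was 1.31 for hsa-miR-26a (95% interval 1.26 to 1.35), 1.35 for hsa-miR-26b (1.29 to 1.42) and 1.27 for hsa-miR-101 (1.24 to 1.30). All 3 were past 2-fold upward, as were 316 (66.5%) of the 475 miRNAs that reached 10 counts in either library, while 5.05% were past 2-fold downward. The median of those 475 miRNAs was 1.42, above each of the 3 guides. Per miRNA count, the same log2 fold-changes were -0.45, -0.41 and -0.49, and the direction was therefore set by the scaling. None of the 3 was past 2-fold on that scale, on which 19.4% of miRNAs were past 2-fold up and 25.1% down.

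Taken relative to the median of all miRNAs, which removes the library size, the log2 fold-changes in the Hep3B pair were -0.11 for hsa-miR-26a, -0.07 for hsa-miR-26b and -0.15 for hsa-miR-101. They lay at percentiles 45.5, 46.9 and 43.8 of the 475 miRNAs. The 3 tumor-suppressor guides thus sat in the middle of all miRNAs of this pair, and the small remainder took the opposite sign (0.15, 0.20 and 0.12) when the median was taken only over miRNAs that reached 100 counts in both libraries.

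In the Huh7 pair the family and miR-101 parted. The log2 fold-change of TPM, Huh7-C over Huh7, was -0.32 for hsa-miR-26a (-0.37 to -0.27), -0.24 for hsa-miR-26b (-0.32 to -0.15) and -1.27 for hsa-miR-101 (-1.30 to -1.24). Only miR-101 of the 3 was past 2-fold, with a TPM in Huh7-C at 0.415 times that in Huh7. Of 431 miRNAs, 37.4% were past 2-fold down and 7.42% up, with a median log2 fold-change of -0.66. Per miRNA count the values were 0.20, 0.28 and -0.75, so that both miR-26 guides changed direction with the scaling and miR-101 did not, and 24.4% of miRNAs were past 2-fold down and 15.3% up.

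Relative to the median of the Huh7 pair, hsa-miR-26a stood at 0.35 and hsa-miR-26b at 0.43, at percentiles 61.7 and 63.1. Hsa-miR-101 stood at -0.60, at percentile 29.7. The miR-26 guides were above the median and miR-101 below it, and this held for medians over miRNAs that reached 1 count in either library or 100 counts in both.

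**Figure D2:**
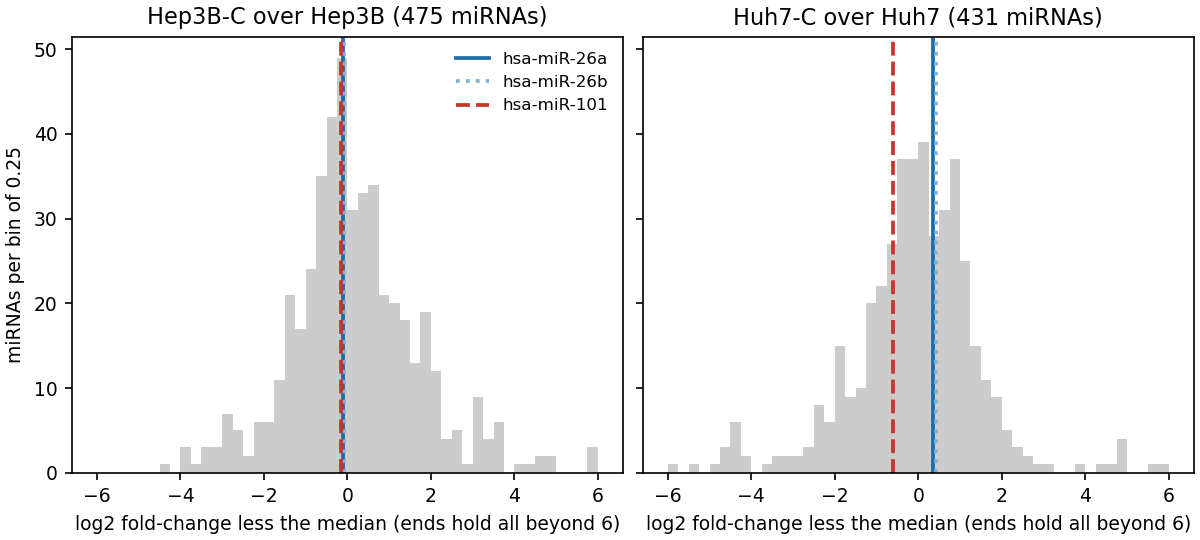
Distribution over all miRNAs of the log2 fold-change less the median (x axis) in the Hep3B pair (left, 475 miRNAs) and the Huh7 pair (right, 431 miRNAs), with the number of miRNAs per bin on the y axis and vertical lines at the 3 guides. The 3 lines lie together near 0 on the left, between -0.15 and -0.07, while on the right miR-101 lies at -0.60 and the miR-26 guides at 0.35 and 0.43.

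Ratios between guides within a library hold no library size and show the same parting. Since different miRNAs can be captured with different efficiency, a ratio is compared between libraries and not read as a ratio of molecules. The ratio of hsa-miR-101 to hsa-miR-26a counts was 2.35 in Hep3B (2.28 to 2.42) and 2.30 in Hep3B-C (2.25 to 2.34), against 3.26 in Huh7 (3.18 to 3.34) and 1.69 in Huh7-C (1.64 to 1.74). It changed by a factor of 0.977 in the Hep3B pair, with an interval of 0.941 to 1.01 that includes no change. In the Huh7 pair it changed by a factor of 0.518 (0.498 to 0.538). The change in the Huh7 pair was 0.530 times that in the Hep3B pair (0.503 to 0.559), a difference beyond counting error. Against hsa-miR-26b, miR-101 changed by a factor of 0.489 (0.460 to 0.519) in the Huh7 pair, and of 0.947 (0.903 to 0.994) in the other. Huh7-C therefore had the lowest ratio of miR-101 to miR-26a, and Huh7 the highest. Over the 431 miRNAs of the Huh7 pair, the quartiles of the log2 fold-change of TPM were -1.49 and 0.15. The values of miR-101 and both miR-26 guides lay between these quartiles. How many ratios of other miRNAs change as much between libraries was not counted.

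The balance inside the miR-26 family followed the parent line instead. The ratio of hsa-miR-26a to hsa-miR-26b counts was 1.94 in Hep3B (1.85 to 2.02) and 1.88 in Hep3B-C (1.82 to 1.93), against 3.26 in Huh7 (3.12 to 3.41) and 3.08 in Huh7-C (2.93 to 3.23). The intervals of one line did not overlap with those of the other. How many ratios of other miRNAs part by line in this way was not counted. Differences between the lines were common, with 9.71% of miRNAs called up and 9.71% called down in the joint fit below. Huh7 over Hep3B, the ratio changed by a factor of 1.69 (1.58 to 1.79), and Huh7-C over Hep3B-C by 1.64 (1.55 to 1.73). Within the pairs the factors were 0.970 (0.919 to 1.02) and 0.943 (0.884 to 1.01), and both intervals include no change.

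**Figure D3:**
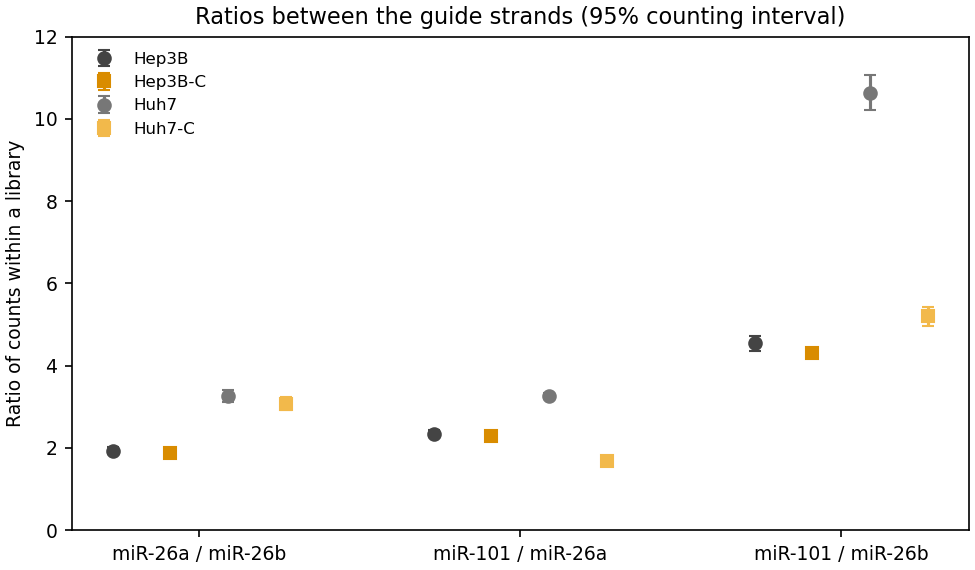
Ratios of counts between guide strands within each library (y axis, linear scale) for the 3 pairs of guides (x axis), with 95% counting intervals as bars. The miR-26a to miR-26b ratio lies near 1.9 in both libraries from Hep3B and above 3 in both from Huh7, and the miR-101 ratios drop from Huh7 to Huh7-C.

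Between parent lines, the log2 difference of CPM, Huh7 over Hep3B, was -1.14 for hsa-miR-26a, -1.89 for hsa-miR-26b and -0.67 for hsa-miR-101, and the median of 476 miRNAs was -0.79. In TPM the same differences were 1.24, 0.49 and 1.72, with a median of 1.59. Less the median, miR-26b stood lowest at -1.10, with miR-26a at -0.35 and miR-101 at 0.12. Between the HCSC lines, Huh7-C over Hep3B-C, the values less the median were -0.28 for miR-26b, 0.44 for miR-26a and -0.01 for miR-101.

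A joint fit of the 4 libraries by edgeR's quasi-likelihood test covered 443 miRNAs, with TMM library sizes and a block for the parent line. For HCSC over HCC, the log2 fold-change was 0.17 for hsa-miR-26a (SE 0.47, adjusted p = 0.906), 0.24 for hsa-miR-26b (SE 0.51, adjusted p = 0.900) and -0.32 for hsa-miR-101 (SE 0.48, adjusted p = 0.891). None of the 3 passed the adjusted threshold of 0.05, and neither did any other miRNA (0% up and 0% down by edgeR). At an unadjusted p under 0.05 there were 31 miRNAs, and DESeq2 called 4 up and 1 down, none of them a guide of the 3. For Huh7 over Hep3B in the same edgeR fit, the log2 differences were 0.03 (SE 0.47, adjusted p = 0.974), -0.70 (SE 0.51, adjusted p = 0.354) and 0.05 (SE 0.48, adjusted p = 0.958), and none passed, beside 9.71% of miRNAs called up and 9.71% called down. The fit had 1 residual degree of freedom, so these p-values miss the threshold without showing that levels were alike.

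The passenger strands give a second readout of the same hairpins. A passenger is the arm that is mostly discarded when the guide is loaded into Argonaute, and the starred names mark it. The sequences are shown because those of the miR-26a hairpins tell MIR26A1 and MIR26A2 apart, with bases 2 to 8 in capitals.
hsa-miR-26a-1*: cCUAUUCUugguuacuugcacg
hsa-miR-26a-2*: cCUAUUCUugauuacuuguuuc
hsa-miR-26b*: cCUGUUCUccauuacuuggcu
hsa-miR-101*: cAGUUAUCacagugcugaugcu

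The miR-26a passengers differed at 5 positions, G11A, C19U, A20U, C21U and G22C, with the base of hsa-miR-26a-1* first. Hsa-miR-101* is the arm of MIR101-1, and the arm of MIR101-2 was not analysed here. Counts were low. Hsa-miR-26a-1* had 4 counts in Hep3B and 1 in Hep3B-C, then 18 in Huh7 and 13 in Huh7-C. Hsa-miR-26a-2* had 14, 2, 19 and 6 counts in the same order, hsa-miR-26b* had 3, 6, 17 and 2, and hsa-miR-101* had 5, 1, 34 and 12. Values of 1 to 3 counts are at or under the floor chosen here, 3 counts, or 0.179 to 0.282 TPM.

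Summed over the 4 passengers, there were 11.8 passenger counts per 10000 guide counts in Hep3B (7.73 to 17.4) and 2.02 in Hep3B-C (0.968 to 3.71), against 22.7 in Huh7 (18.2 to 27.9) and 15.9 in Huh7-C (11.0 to 22.4). Hep3B-C stood below the other 3 libraries, and its interval did not overlap with theirs. From Hep3B to Hep3B-C the passenger-to-guide ratio changed by a factor of 0.171 (0.0734 to 0.366), and from Huh7 to Huh7-C by 0.703 (0.456 to 1.06), an interval that includes no change. These sums rest on 26 passenger counts in Hep3B, 10 in its HCSCs, 88 in Huh7 and 33 in its HCSCs.

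The background was all passengers with a starred name and a counted guide, so minor arms named without a star were left out. Of these, 58 in the Hep3B pair had at least 10 counts in either library with at least 100 guide counts in both. In Hep3B-C, 13.8% of the 58 were lower relative to their guide by at least 2-fold. The only one of the 4 among the 58 was hsa-miR-26a-2*, whose ratio to its guide changed by a factor of 0.0627 (0.00692 to 0.273). In the Huh7 pair 65 passengers met the same counts, and 30.8% of them were lower by at least 2-fold. All 4 were among the 65, and 2 were past 2-fold, hsa-miR-26a-2* with a factor of 0.391 (0.128 to 1.02) and hsa-miR-26b* with 0.137 (0.0154 to 0.579). Those 2 reached 10 counts in Huh7 alone (19 and 17, against 6 and 2 in Huh7-C). Likewise, hsa-miR-26a-2* reached it in Hep3B alone (14 against 2 in Hep3B-C). A strand that enters through the parent alone is favoured to appear lower in the HCSCs, so these falls are descriptions only. Hsa-miR-101*, with a factor of 0.843 (0.397 to 1.67), kept pace with its guide within counting error, although the guide itself was past 2-fold down in TPM.

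Hsa-miR-26a-1* made up 4 of the 18 miR-26a passenger counts in Hep3B (22.2%, 95% interval 6.41% to 47.6%), 18 of 37 in Huh7 (48.6%, 31.9% to 65.6%) and 13 of 19 in Huh7-C (68.4%, 43.4% to 87.4%). In Hep3B-C it was 1 of 3 counts. The intervals overlapped between Hep3B and Huh7 and between Huh7 and Huh7-C, and narrowly between Hep3B and Huh7-C. Overlap of intervals does not decide whether shares differ, and a shift between the hairpins of miR-26a was not tested.

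**Figure D4:**
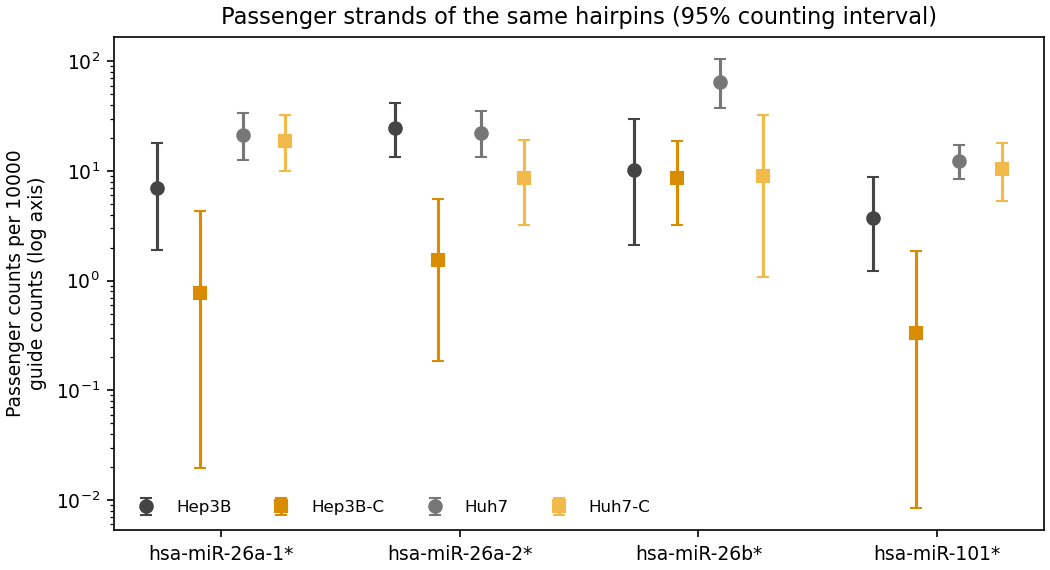
Passenger counts per 10000 guide counts (y axis, log scale) for the 4 passenger strands (x axis) in the 4 libraries, with 95% counting intervals as bars. Hep3B-C lies lowest for hsa-miR-26a-1*, hsa-miR-26a-2* and hsa-miR-101*, on 1, 2 and 1 counts.

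Other miRNAs described as tumor suppressors in liver cancer were examined beside the 3 guides. Of 16 listed, 10 reached the minimum of 10 counts in the Hep3B pair. In TPM, 6 of these (60.0%) were past 2-fold up and 2 (20.0%) down, beside 66.5% and 5.05% of all miRNAs, with a median log2 fold-change of 2.09 (all miRNAs 1.42). Per miRNA count, 2 (20.0%) were past 2-fold up and 4 (40.0%) down, beside 19.4% and 25.1%, and the median was 0.33 (all miRNAs -0.34). In the Huh7 pair 11 had enough counts, with 1 (9.09%) past 2-fold up and 6 (54.5%) down in TPM, beside 7.42% and 37.4%, and a median of -1.13 (all miRNAs -0.66). Per miRNA count, 2 (18.2%) were past 2-fold up and 3 (27.3%) down, beside 15.3% and 24.4%, and the median was -0.61 (all miRNAs -0.15). The list's median thus lay above that of all miRNAs in the Hep3B pair and below it in the Huh7 pair on both scales.

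A few members kept their direction on both scales and in both pairs. Among them, hsa-miR-375, hsa-miR-199a-3p and hsa-miR-29c had been selected by the study from these same libraries, for a change in the same direction in both pairs. The list was also chosen with earlier results of these data known, so their kept direction is no independent evidence. Hsa-miR-375, best known from pancreatic islets, had 3452 and 31379 counts in Hep3B and Hep3B-C, then 1573 and 4060 in Huh7 and Huh7-C. Its log2 fold-changes of TPM were 3.30 and 1.36, and per miRNA count 1.54 and 1.87, all upward in HCSCs. Hsa-miR-199a-3p, with 165, 64, 72 and 13 counts in the same order, was lower in HCSCs, at -1.25 and -2.48 in TPM and -3.01 and -1.96 per miRNA count. Hsa-miR-29c, of the miR-29 family that acts on collagen mRNAs, had 100, 33, 96 and 42 counts and was lower too, at -1.48 and -1.21 in TPM and -3.24 and -0.69 per miRNA count. Hsa-miR-148a was higher in both, with 95296, 366764, 256476 and 306533 counts, at 2.06 and 0.24 in TPM and 0.30 and 0.76 per miRNA count.

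Other members differed between the pairs or between the scales. Hsa-miR-122, the dominant hepatocyte miRNA, had 397, 149892, 489443 and 144814 counts in the same order. It stood at 8.68 and -1.77 in TPM and at 6.92 and -1.25 per miRNA count, up in the Hep3B pair and down in the Huh7 pair on both scales. Hsa-miR-34a, a p53 target, had 154, 214, 292 and 24 counts. Its log2 fold-change was 0.59 in TPM and -1.17 per miRNA count in the Hep3B pair, so the sign turned with the scaling, and -3.62 and -3.10 in the Huh7 pair. Hsa-let-7g, of the let-7 family that restrains RAS and MYC, had 3827, 2762, 377 and 362 counts. It stood at -0.35 in TPM and -2.11 per miRNA count in the Hep3B pair, and at -0.07 and 0.45 in the Huh7 pair.

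The remaining members had fewer counts. Hsa-miR-125b ran from 381 to 1517 counts, at 2.11 and -0.97 in TPM and 0.35 and -0.45 per miRNA count, and hsa-miR-195 from 21 to 211, at 2.38 and -1.14 in TPM and 0.62 and -0.63 per miRNA count. Both were higher in Hep3B-C and lower in Huh7-C than in the parent, although for hsa-miR-195 per miRNA count the interval in the Huh7 pair (-1.44 to 0.15) includes no change. Hsa-miR-1 ran from 4 to 44 counts, at 2.88 and 0.49 in TPM and 1.11 and 1.01 per miRNA count. Hsa-miR-203 had enough counts in the Huh7 pair alone, 27 and 12, with -1.18 (-2.30 to -0.15) in TPM and -0.66 (-1.78 to 0.36) per miRNA count. Hsa-miR-145, hsa-miR-139-5p, hsa-miR-214 and hsa-miR-223 had at most 5 counts in any library and hsa-miR-124 had 0, so levels of these 5 could not be compared at this depth.

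Of 4 other miRNAs described as repressors of EZH2, the target shared by miR-26a and miR-101, hsa-miR-217 alone had enough counts for a fold in the Hep3B pair. It had 240 counts in Hep3B and 527 in Hep3B-C, then 1 in Huh7 and 3 in Huh7-C, and Hep3B-C over Hep3B it stood at a log2 fold-change of 1.26 in TPM and -0.51 per miRNA count. Hsa-miR-138 had 8, 6, 1 and 1 counts, and hsa-miR-214 and hsa-miR-124 had at most 2. Hsa-miR-101 and hsa-miR-26a had more counts than each of these 4 in every library. The list of 4 was chosen with earlier results of these data known, and other miRNAs that act on EZH2 were not sought. The share of miR-101 and miR-26a among all such miRNAs is therefore not shown, and counts of different miRNAs are not a ratio of molecules. Levels of EZH2 mRNA were not analysed here.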

How the data were processed

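Small RNA of 4 cell populations had been sequenced on an Illumina Genome Analyzer II. The authors removed reads under 18 nt, mapped the rest to an older NCBI build of the human genome with SOAP, set other RNA classes aside and deposited raw counts per miRNA (miRBase release 17), with no normalization. TPM used the total reads that the study gives per library, and CPM the summed counts. The guides and lists were chosen with earlier results of these data known. A miRNA entered a pair comparison when 1 of its libraries reached 10 counts. Intervals are exact at 95% (binomial, or conditional on the totals for a change of a passenger-to-guide ratio). Changes of a ratio between guides, and changes compared between pairs, instead have normal 95% intervals on the log scale. No p-value is given for a pair. Whether the libraries came from separate cultures beyond the named lines is not stated.

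Both lines were fitted by edgeR 4.0.16 in R 4.3.3, over miRNAs that reached 10 counts in 2 or more libraries, with Benjamini-Hochberg adjustment. The HCSC lines derive from their parents, which pairs the libraries, and deviations from group means correlated within a line (Pearson r = 0.837 over 443 miRNAs). Alternatives were other library sizes, other filters, DESeq2 1.42.0, no block and each library left out. The fold-change intervals were tried on simulated counts first, and the edgeR fit was tried on simulated counts after the fits of the real data. The miRNAs named were the 3 guides, their passengers, miRNAs sharing a seed, both lists, cell type markers and, per guide, the 5 miRNAs nearest in pattern (root mean square difference of centred log2 TPM). Python 3.11.15 with scipy 1.17.1 was used.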

Additional observations from a re-analysis of the deposited data

Results flagged for a closer look

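The log2 fold-change of TPM had opposite signs in the Hep3B pair and the Huh7 pair for 4 strands. So did the median of all miRNAs, at 1.42 and -0.66, and opposite signs are therefore not particular to these strands. The share of all miRNAs with opposite signs was not counted. The change in the Huh7 pair less that in the Hep3B pair was -1.63 for hsa-miR-26a, -1.59 for hsa-miR-26b and -2.54 for hsa-miR-101. The difference between pairs was not tested against replicates, since each condition had 1 library. Less the median of all miRNAs in each pair, the same gaps were 0.46, 0.50 and -0.45, so the sign turned for both miR-26 guides and held for miR-101. For hsa-miR-26b* the gap was -4.22, from 1.12 (95% interval -1.11 to 3.75) in the Hep3B pair and -3.10 (-6.26 to -1.03) in the Huh7 pair, on 3, 6, 17 and 2 counts, and this too was not tested.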

How the results depend on the processing

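In the Hep3B pair, the log2 fold-changes of hsa-miR-26a, hsa-miR-26b and hsa-miR-101 were -0.45, -0.41 and -0.49 with total miRNA counts, -0.11, -0.061 and -0.14 with TMM, and 0.13, 0.17 and 0.095 with size factors of DESeq2. Huh7-C over Huh7 they were 0.20, 0.28 and -0.75, then -0.0029, 0.081 and -0.95, then 0.25, 0.34 and -0.70. Less a median over miRNAs with at least 100 counts in both, they were 0.15, 0.20 and 0.12 for Hep3B-C and 0.19, 0.28 and -0.76 for Huh7-C, and -0.65 for miR-101 in the latter with at least 1 count. MiRNAs past 2-fold up in the Hep3B pair numbered 92 with miRNA counts and 517 with at least 1 count (down 119 and 96), and in the Huh7 pair 66 and 112 (down 105 and 299). DESeq2 called 4 miRNAs up and 1 down in HCSCs, where edgeR called 0. The fit without the replicate block gave 0 calls too, and the block changed no call of a guide.

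The fits never called a guide, and several signs changed. HCSC over HCC, hsa-miR-26a was -0.054 with no filter, hsa-miR-101 was 0.0029 with total reads, and hsa-miR-26b ran from -0.095 to 0.65 as each library was left out. Huh7 over Hep3B, hsa-miR-26a and hsa-miR-101 were -0.17 and -0.15 with no filter and -0.10 and -0.087 with DESeq2, and ran from -0.064 to 0.20 and from -0.34 to 0.43 as each library was left out. Adjusted p over all these fits was at least 0.282. Calls between lines were 21 up with total reads and 73 down with DESeq2. They ran from 23 to 70 up and 23 to 78 down with a library left out: 51 up and 78 down without Hep3B, 24 and 29 without Huh7, 70 and 72 without Hep3B-C, and 23 and 23 without Huh7-C. These fits had no block, and the lone library of an arm was assumed to vary like the others. One line fit without a term for cell state was chosen after seeing the data and called 61 up and 64 down. With an added adjusted p of the exact Poisson test, the Hep3B pair had 277 miRNAs past 2-fold up and 21 down, the Huh7 pair 24 and 136. Over all results and settings, 68 values stayed the same, 37 moved and 17 reversed sign. A value of a pair stayed if it lay within the counting interval of the reported one. In a fit, a value stayed if it kept its sign and call, and a number of miRNAs if it was within 1.5 times the reported one. For a pair, a changed sign was labelled reversed only where the reported value was past 2-fold. Some moved values thus changed sign too, such as hsa-miR-26a in the Huh7 pair with total miRNA counts. Where the cause of a change is not in the setting itself, the cause was not tested. With 1 library per condition, depth limits the passengers and the miRNAs of few counts, and culture variation could not be measured.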

Other observations

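The miRNAs nearest to each guide in pattern were found over the 4 libraries among 130 miRNAs with at least 100 counts in each, by the root mean square difference of centred log2 levels. For hsa-miR-26a they were hsa-miR-28-3p (0.113), hsa-miR-500a* (0.162), hsa-miR-589 (0.193), hsa-miR-1292 (0.201) and hsa-miR-30d (0.232), against a median of 0.831. For hsa-miR-26b they were hsa-miR-628-5p (0.193), hsa-miR-93 (0.260), hsa-miR-320a (0.276), hsa-miR-423-5p (0.287) and hsa-miR-17* (0.292). For hsa-miR-101 they were hsa-miR-96 (0.113), hsa-miR-128 (0.151), hsa-miR-125a-5p (0.170), hsa-miR-1292 (0.182) and hsa-miR-423-3p (0.229). The family partner was not among the 5 nearest: hsa-miR-26b was at place 13 for hsa-miR-26a, and hsa-miR-26a at place 11 for hsa-miR-26b. With 4 points that share lines, these distances are descriptions.

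The nearest neighbour of hsa-miR-101, hsa-miR-96, had 249 counts in Hep3B and 677 in Hep3B-C, then 605 in Huh7 and 231 in Huh7-C, and its log2 fold-change of TPM was 1.56 between the former and -1.40 between the latter (-0.20 and -0.88 per miRNA count). That of hsa-miR-26a, hsa-miR-28-3p, had 6322, 12925, 10264 and 6909 counts, with 1.15 and -0.58 in TPM and -0.61 and -0.07 per miRNA count. The sign in the Hep3B pair turned with the scaling for both, as it did for their guides. It also turned for the median of all miRNAs, at 1.42 in TPM and -0.34 per miRNA count. The neighbours were picked for their likeness over these same counts, so their likeness to the guides here is no separate evidence.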
